A study of Mus musculus with 3 samples.

Results

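The 48 genes described here encode the proteins that license replication origins, unwind DNA and build and guard the replication fork. They were taken by symbol from a named roster and matched to gene identifiers in the deposited tables, where all 48 were found among 50600 genes. The roster was sorted by role into 9 genes of origin recognition and licensing, 13 of the helicase, 9 of the polymerases, 12 of the clamp, clamp loader, single-strand binding and strand maturation, and 5 of the S-phase kinase and fork checkpoint. RNA came from T-helper 1 (Th1) cells of C57BL/6NJ mice, primary CD4 T cells of the interferon-gamma-producing lineage, and was sequenced in 3 libraries of this 1 group. According to the headers of the tables the cells were taken at 48 hours of a time course, whose starting point they do not state. In the labels the libraries are biological replicates 1, 2 and 3 with a single donor entry. The labels give no genotype or treatment beyond the Th1 type, record the age as unknown, and do not say whether separate animals or cultures were used. The data therefore allow levels within a library and the spread between libraries, and no comparison of conditions.

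Replication is licensed in G1, when the origin recognition complex (ORC) with Cdc6 and Cdt1 loads the ring-shaped MCM2-7 complex onto DNA, and geminin (Gmnn) later blocks Cdt1 so that the same origin is not loaded again. The Dbf4-Cdc7 kinase then helps turn MCM2-7 into the active helicase by recruitment of Cdc45 and the GINS complex. Polymerase alpha-primase starts each strand, polymerases epsilon and delta extend the leading and lagging strands, replication factor C (RFC) loads the sliding clamp Pcna, and Fen1 and Lig1 finish the lagging strand. Many of these genes are textbook targets of E2F transcription factors, and activated T cells are known for rapid division.

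Replicate 2 stood apart in depth before any gene was considered. Totals were 4742025, 50627 and 3543816 counts in replicates 1, 2 and 3, and genes with a count numbered 17270, 7749 and 16786. In replicate 2, 1 count was worth 19.75 CPM (the count scaled by the library total) and a count of 0 allowed up to 59.3 CPM (3 counts, counting error only), so its values for single genes rest on few counts. Genes that share exonic positions with a gene of the opposite strand held 52.7%, 57.8% and 72.2% of the counts in replicates 1, 2 and 3. The headers give strand setting 1 for counting, and the kit that would fix which strand the first read reports is not given in the sources used here. Were the kit to report the other strand, a gene's count would come from fragments of the strand opposite to it, and the levels given here would not be those of its messenger RNA. Which case holds was not tested, and each value here is the count assigned to the gene under that setting. All 6 T-cell markers (Cd3e, Cd3d, Cd3g, Cd4, Trac, Thy1) and 4 of 5 Th1 markers passed 1 TPM (the count per exon length, scaled to the sum of such values in the library) in every library, with Cxcr3 at 4, 0 and 2 counts. Of those 4, Il12rb2 (92, 2 and 115 counts) has 40.0% of its exonic length under opposite-strand exons. Summed over each list, T-cell markers held 639 to 1269 CPM. B-cell, CD8 and cytotoxic, and NK lists held 0 to 19.75 CPM, with Ms4a1, Pax5, Cd8a, Prf1, Gzma, Ncr1, Klrb1c and Klra8 at 0 in every library. In the same lists, Eomes (55, 1 and 32 counts) and Cd8b1 (21, 1 and 13 counts) passed 1 TPM in every library. Cd79a had 10, 0 and 22 counts. All 5 erythroid and platelet markers were at 0. The myeloid list held 198 to 455 CPM, nearly all in Csf1r (1096, 10 and 1606 counts, 17.8% of its exonic length under opposite-strand exons), while Lyz2, Itgam and Adgre1 were at 0 in every library.

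The start regions of these genes were read first, because the E2F letters that the roster is known for can be seen in them. RefSeq start-region sequences (GRCm38.p6, 250 letters before to 50 letters after the annotated start, 300 letters in all) were matched for 39 of the 48 genes, which have 48 such regions. An E2F-type match was any of TTCCCGC or TTGGCGC or TTCGCGC or TTGCCGC on either strand, so that a palindromic site can be counted on both strands and such matches overlap. The 6 regions shown hold from none to 5 matches and belong to genes whose levels are given in the account that follows. They are printed 5′ to 3′ on the gene's own strand, in lower case with E2F-type matches in capitals. Mcm6 lies at chr1:128359656-128359955 on the minus strand, Mcm3 at chr1:20820263-20820562 on the minus strand, Mcm7 at chr5:138171834-138172133 on the minus strand, Cdc6 at chr11:98907901-98908200 on the plus strand, Pcna at chr2:132253131-132253430 on the minus strand and Top2a at chr11:99024140-99024439 on the minus strand.
Mcm6: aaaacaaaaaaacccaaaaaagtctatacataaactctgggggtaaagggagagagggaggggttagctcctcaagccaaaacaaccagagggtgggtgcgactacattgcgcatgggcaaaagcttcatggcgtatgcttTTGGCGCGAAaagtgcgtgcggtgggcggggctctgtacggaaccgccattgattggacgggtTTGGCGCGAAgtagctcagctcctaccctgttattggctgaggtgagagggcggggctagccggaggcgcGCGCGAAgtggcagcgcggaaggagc
Mcm3: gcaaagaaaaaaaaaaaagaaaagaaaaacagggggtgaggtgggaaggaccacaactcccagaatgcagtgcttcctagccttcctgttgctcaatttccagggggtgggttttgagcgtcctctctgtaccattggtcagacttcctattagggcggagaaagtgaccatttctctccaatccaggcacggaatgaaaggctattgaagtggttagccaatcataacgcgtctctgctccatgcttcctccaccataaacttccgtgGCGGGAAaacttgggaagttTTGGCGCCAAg
Mcm7: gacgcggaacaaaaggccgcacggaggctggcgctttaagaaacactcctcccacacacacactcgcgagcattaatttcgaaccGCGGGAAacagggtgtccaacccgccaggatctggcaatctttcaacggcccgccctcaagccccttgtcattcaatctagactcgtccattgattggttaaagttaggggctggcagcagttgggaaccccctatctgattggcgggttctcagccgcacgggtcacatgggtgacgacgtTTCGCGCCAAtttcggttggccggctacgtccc
Cdc6: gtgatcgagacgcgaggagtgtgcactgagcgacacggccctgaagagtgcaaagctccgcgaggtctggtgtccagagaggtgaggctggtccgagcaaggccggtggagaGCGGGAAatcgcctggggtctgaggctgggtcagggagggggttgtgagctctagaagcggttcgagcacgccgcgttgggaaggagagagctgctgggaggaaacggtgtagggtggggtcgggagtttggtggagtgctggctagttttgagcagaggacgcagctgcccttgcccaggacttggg
Pcna: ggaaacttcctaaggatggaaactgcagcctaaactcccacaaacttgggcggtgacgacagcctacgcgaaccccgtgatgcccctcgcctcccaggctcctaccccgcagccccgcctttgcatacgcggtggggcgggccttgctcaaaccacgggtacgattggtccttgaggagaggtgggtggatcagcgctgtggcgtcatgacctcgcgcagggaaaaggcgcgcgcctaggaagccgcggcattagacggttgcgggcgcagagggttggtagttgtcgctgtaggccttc
Top2a: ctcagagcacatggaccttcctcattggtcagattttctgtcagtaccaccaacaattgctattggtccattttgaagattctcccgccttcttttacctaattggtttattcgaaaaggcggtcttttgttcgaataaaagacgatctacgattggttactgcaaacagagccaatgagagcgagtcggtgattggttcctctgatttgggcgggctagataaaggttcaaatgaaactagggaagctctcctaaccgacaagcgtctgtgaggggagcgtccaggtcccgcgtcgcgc

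Positions are those of the first letter of a match on the gene strand, with 1 for the annotated start and -1 for the letter before it. The Mcm6 region held 5 matches, an overlapping pair on the 2 strands at -109 and -106, another such pair at -46 and -43, and 1 match at 25. The Mcm3 region held 3 matches, at 20, 40 and 43, and the Mcm7 region shown held 3, at -165, 18 and 21. Cdc6 held 1 match, at -138. Pcna and Top2a held none, so their sequences are in lower case throughout, although Top2a held 6 CCAAT boxes, the letters bound by NF-Y, and 2 copies of TTTGAA, the cell-cycle homology element found in many mitotic genes.

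At least 1 E2F-type match was present in 25 of the 39 genes (64.1%), and 10 of them had 2 or more. Over all 27025 genes of the same table, 10.9% had a match. The share was 14.1% of 16469 protein-coding genes and 20.4% of the 7685 protein-coding genes that reached 1 TPM in replicates 1 and 3. CCAAT was present in 24 of 39 (61.5%, against 43.4% of those 7685 genes) and TTTGAA in 8 of 39 (20.5%, against 14.3%), with both strands searched for each. Of 46 E2F-type matches in all, 11 lay in the 100 letters before the start. The 2 regions of Cdc7 overlap, and 1 site that lies in both is counted at 14 and at -226. The genes without a match were Pcna, Mcm2, Mcm10, Cdc45, Top2a, Rfc5, Timeless, Dbf4, Orc2, Orc5, Orc6, Pola2, Pold2 and Rpa1. Their median level was 70.2, 43.5 and 32.2 TPM in replicates 1, 2 and 3, against 36.2, 27.4 and 16.9 TPM for the 25 genes with a match. Within the roster, genes with a match thus did not have the higher median level, and whether the match bears on a level was not tested. No region was available for Gins1, Gins2, Gins4, Gmnn, Mcm4, Pole, Prim2, Rfc2 and Tipin.

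**Figure D1:**
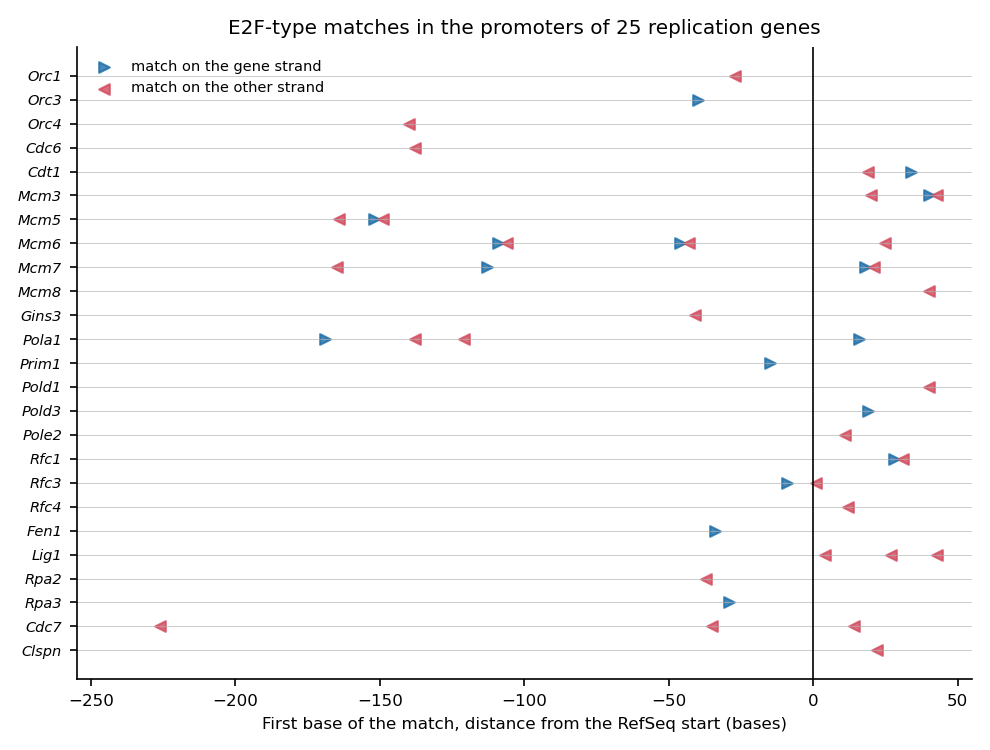
Positions of E2F-type matches in the RefSeq start regions of the 25 genes that hold one. The horizontal axis is the distance of the first base of a match from the annotated start (black line) in bases, each row is a gene, and right-pointing and left-pointing triangles are matches on the gene strand and on the other strand. Of 46 matches, 11 lie in the 100 bases before the start, and Mcm6 has 5. For Cdc7, 1 site in 2 overlapping regions is drawn at 14 and at -226.

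Every gene of the roster was detected in the deep libraries and most stood in the upper part of the transcriptome. In replicates 1 and 3 all 48 reached 1 TPM, and 44 of 48 did so in every library, against 6394 of 21764 protein-coding genes in every library and 9636 in replicates 1 and 3. The 4 exceptions, Orc5, Gins4, Rpa3 and Clspn, had 0 counts in replicate 2. The median gene of the roster stood at percentile 81.2, 58.0 and 77.2 of protein-coding genes with a count in replicates 1, 2 and 3, at 43.8, 29.0 and 19.0 TPM. Counts per gene ran from 63 to 3707 in replicate 1, from 0 to 32 in replicate 2 and from 27 to 1461 in replicate 3. In these bulk samples, fewer dividing cells and less RNA per cell cannot be told apart.

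Together the 48 genes held 28376, 244 and 13016 counts, which is 0.598% (exact Clopper-Pearson 95% interval 0.592 to 0.605), 0.482% (0.424 to 0.546) and 0.367% (0.361 to 0.374) of each library. Replicate 3 was thus the lowest by a margin beyond counting error when all counts are the denominator. Among the counts of genes with no opposite-strand exon, the 34 members of that kind held 0.918% (0.906 to 0.931), 0.805% (0.690 to 0.934) and 0.838% (0.820 to 0.856). On that denominator the interval of replicate 2 covered both of the others, and replicates 1 and 3 still differed beyond counting error but by a smaller factor. The levels kept nearly the same order in replicates 1 and 3. Across the 48 genes the log2 TPM values of the 2 libraries had a Pearson r of 0.96 and a Spearman rho of 0.97, a description over genes that share gene length and library composition.

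**Figure D2:**
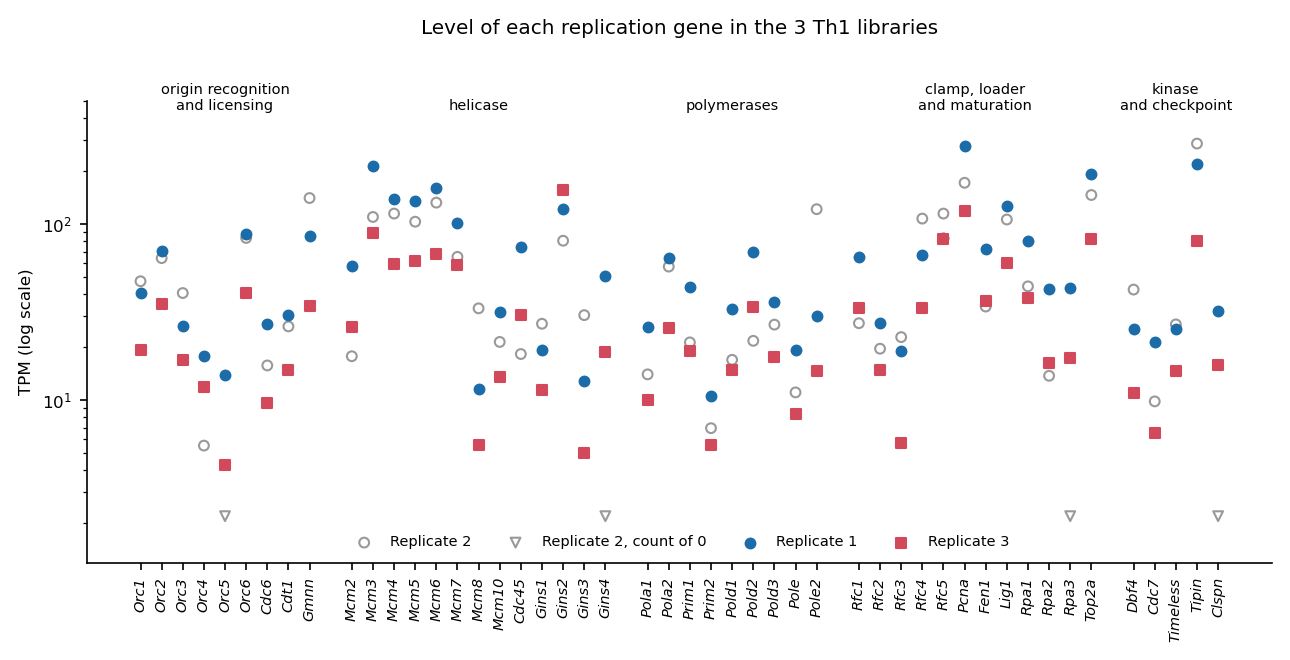
Level of each of the 48 genes in the 3 Th1 libraries, in TPM on a log axis, arranged by role. Filled circles are replicate 1, filled squares replicate 3, open circles replicate 2 and open triangles, placed at an arbitrary height, genes with 0 counts in replicate 2. Squares lie below circles for all genes but Gins2 (122 TPM in replicate 1 and 157 TPM in replicate 3), and Rfc5 is nearly level (83.9 and 82.3 TPM).

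The 6 ORC subunits, which form a complex with 1 copy of each, were not counted at equal levels. Per summed exon length their order was the same in all 3 libraries, with at most 6 counts per subunit in replicate 2. That order rests on the deposited lengths. For Orc3 (6088 bases) and Orc5 (6166 bases) these far exceed the longest protein-coding transcript (2300 and 2103 bases). Orc6, the smallest subunit, was highest at 88.0, 83.6 and 40.5 TPM (465, 5 and 197 counts; chromosome 8, 85299632 to 85308278, plus strand, mm10). Orc2, a core subunit, followed at 70.5, 64.2 and 35.3 TPM, and Orc1, the largest subunit and an ATPase, at 40.7, 47.5 and 19.4 TPM. Orc3 and Orc4 came next, and Orc5 (chromosome 5, 22486485 to 22550429, minus strand) was lowest at 183, 0 and 52 counts, or 13.9 and 4.28 TPM in replicates 1 and 3. The highest and lowest subunits differed 6.35-fold in replicate 1 and 9.46-fold in replicate 3. Orc6 over Orc2 had a log2 ratio of 0.32 in replicate 1 (exact 95% counting interval 0.14 to 0.50) and 0.20 in replicate 3 (-0.07 to 0.47), so these neighbours in the order did not differ beyond counting error in replicate 3. Orc1 lay below Orc2 in both deep libraries, at -0.79 (-0.998 to -0.59) and -0.86 (-1.17 to -0.56).

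Opposite-strand exons cover 29.8% of Orc2 and 10.8% of Orc1. The end of Orc2 runs into the end of Nif3l1, which had 2962, 43 and 3467 counts where Orc2 had 582, 6 and 268. The end of Orc1 runs into Gm12743, a noncoding gene with 1227, 26 and 1754 counts where Orc1 had 303, 4 and 133. Per kb of exon these partners were 2.53-fold and 3.81-fold above Orc2 and Orc1 in replicate 1, and 6.43-fold and 12.4-fold in replicate 3. Both partners were thus counted higher per kb than the ORC gene they meet, and their part in its level was not tested.

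Among the licensing factors, the inhibitor stood above its target in every library. Gmnn (chromosome 13, 24751845 to 24761923, minus strand) had 270, 5 and 99 counts, or 86.1, 141 and 34.3 TPM. Cdt1, the MCM loader that it blocks, had 204, 2 and 92 counts, or 30.3, 26.3 and 14.9 TPM. Cdt1 over Gmnn was -1.504 on the log2 scale in replicate 1 (-1.77 to -1.24) and -1.21 in replicate 3 (-1.63 to -0.78), a 2.84-fold and a 2.31-fold excess of Gmnn, and the 2 intervals overlapped. Cdc6, the ATPase that works with Cdt1, had 303, 2 and 100 counts, or 27.1, 15.8 and 9.70 TPM. Cdc6 over Cdt1 was -0.17 (-0.43 to 0.10) and -0.62 (-1.04 to -0.19), so Cdc6 was below Cdt1 beyond counting error in replicate 3 alone. None of these 3 genes has an exonic position in common with an opposite-strand gene.

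The 13 helicase genes had a median of 74.7, 33.3 and 30.6 TPM, and within MCM2-7 the spread was narrow. Mcm3 (chromosome 1, 20802968 to 20820312, minus strand) had 1721, 10 and 660 counts, or 214, 110.0 and 89.2 TPM. Mcm6 (chromosome 1, 128331590 to 128359664, minus strand) had 1615, 15 and 621 counts, or 162, 133 and 67.5 TPM. Mcm4 and Mcm5 lay just below at 138 and 135 TPM in replicate 1 and 59.8 and 61.9 TPM in replicate 3. Mcm7 had 959, 7 and 512 counts (101, 65.3 and 58.7 TPM), and Mcm2 (chromosome 6, 88883474 to 88898780, minus strand) was lowest in all 3 libraries at 862, 3 and 359 counts (57.9, 17.8 and 26.2 TPM). The highest subunit of this ring, which holds 1 copy of each, exceeded the lowest 3.70-fold in replicate 1 and 3.41-fold in replicate 3. These folds were less than in the ORC, GINS, polymerase alpha-primase or RFC sets of the same libraries. Their size rests on the deposited length of Mcm2 (6956 bases), which is far longer than its longest protein-coding transcript (3371 bases).

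Set against Mcm6, which shares no exonic position with an opposite-strand gene, Mcm2, Mcm3, Mcm4 and Mcm5 had ratios whose intervals overlapped between the deep libraries, and Mcm7 did not. Mcm3 over Mcm6 was 0.41 on the log2 scale in replicate 1 (0.31 to 0.51) and 0.40 in replicate 3 (0.24 to 0.56). Mcm2 over Mcm6, per summed exon length, was -1.48 (-1.60 to -1.36) and -1.37 (-1.56 to -1.18). Mcm4 over Mcm6 was -0.22 (-0.34 to -0.11) and -0.18 (-0.36 to 0.01), and Mcm5 over Mcm6 -0.26 (-0.37 to -0.15) and -0.13 (-0.30 to 0.05). Mcm4 and Mcm5 thus lay below Mcm6 beyond counting error in replicate 1 and not in replicate 3, and their own intervals against Mcm6 overlapped each other in both libraries.

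Every ratio of these subunits to Mcm7 shifted between the libraries. Mcm3 over Mcm7 was 1.08 (0.97 to 1.197) in replicate 1 and 0.60 (0.44 to 0.77) in replicate 3, and Mcm6 over Mcm7 was 0.68 (0.56 to 0.79) and 0.20 (0.03 to 0.37). In 7 of the 8 ratios with Mcm7 as the reference, the intervals of replicates 1 and 3 did not overlap. Mcm7 shares 8.70% of its exonic length with opposite-strand exons. Its start overlaps that of Ap4m1, which had 1279, 13 and 1453 counts, and its end meets Cops6, which had 719, 12 and 502 counts. The microRNA genes of the same strand inside Mcm7, Mir25 and Mir93, both had 0 counts in every library. The length of the longest protein-coding transcript was also used in place of the summed exon length, a setting added after the values were seen. Mcm4 over Mcm7 was then -0.13 in replicate 1 and -0.55 in replicate 3, in place of 0.45 and 0.03. Mcm2 over Mcm7 stayed below 0 but came nearer to it, at -0.34 and -0.70 in place of -0.81 and -1.16. Mcm5 and Mcm6 over Mcm7 stayed above 0 in replicate 1 and turned to -0.26 and -0.28 in replicate 3.

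The remaining helicase genes stood lower. Cdc45 (chromosome 16, 18780447 to 18811987, minus strand), the factor that joins MCM2-7 to form the active helicase, had 360, 1 and 136 counts, or 74.7, 18.3 and 30.6 TPM. It was 2.17-fold below Mcm6 in replicate 1 and 2.204-fold in replicate 3. Mcm10, which acts as the helicase starts to unwind, had 521, 4 and 206 counts (31.6, 21.5 and 13.6 TPM) and was 5.11-fold and 4.97-fold below Mcm6. These 2 proportions to Mcm6 had overlapping intervals in the deep libraries. Mcm8, which works with Mcm9 in repair rather than in the ring, was the lowest helicase gene of replicate 1 at 92, 3 and 41 counts (11.6, 33.3 and 5.59 TPM).

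The 4 GINS subunits, also present as 1 copy of each in the complex, had the widest fold between highest and lowest of any complex in replicates 1 and 3. Gins2 (chromosome 8, 120578633 to 120589304, minus strand) had 1071, 8 and 1265 counts, or 122, 80.6 and 157 TPM. Gins4 had 147, 0 and 50 counts (50.9 TPM in replicate 1 and 18.8 TPM in replicate 3). Gins1 had 63, 1 and 34 counts (19.4, 27.2 and 11.4 TPM), and Gins3 (chromosome 8, 95633453 to 95645060, plus strand) 75, 2 and 27 counts (12.9, 30.5 and 5.06 TPM). Gins2 was counted 9.44-fold above Gins3 in replicate 1 and 31.0-fold in replicate 3, and was the only one of the 4 with a higher CPM in replicate 3 than in replicate 1. Of the exonic length of Gins2, 67.3% lies under the end of Gse1 on the plus strand (517, 11 and 575 counts), while Gins1, Gins3 and Gins4 share none. Gse1 itself had 0.19, 0.54 and 0.18 times the count per kb of Gins2. Without Gins2, Gins4 over Gins1 was 1.39 on the log2 scale (0.96 to 1.84) in replicate 1 and 0.72 (0.07 to 1.398) in replicate 3, and Gins3 over Gins1 was -0.59 (-1.09 to -0.08) and -1.17 (-1.96 to -0.40), with overlapping intervals in both cases.

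All 9 polymerase genes were detected in every library, and in each polymerase the accessory second subunit was counted above the catalytic one per summed exon length. In polymerase alpha-primase the order by that length, Pola2, Prim1, Pola1, Prim2, was the same in all 3 libraries. Pola2, the accessory subunit (chromosome 19, 5940543 to 5964206, minus strand), had 396, 4 and 146 counts, or 64.4, 57.5 and 25.8 TPM. Pola1, the catalytic subunit, had 493, 3 and 174 counts, or 26.1, 14.1 and 10.02 TPM. Prim2 is the large primase subunit (chromosome 1, 33453810 to 33669795, minus strand). By summed exon length it was the lowest polymerase gene in every library at 134, 1 and 65 counts, or 10.5, 6.95 and 5.55 TPM. That rank rests on the deposited length of Prim2 (5938 bases), which is far longer than its longest protein-coding transcript (1975 bases). Pola2 over Pola1 was 1.30 (1.11 to 1.495) in replicate 1 and 1.36 (1.04 to 1.69) in replicate 3. Prim2 over Prim1, the catalytic primase subunit, was -2.06 (-2.36 to -1.78) and -1.79 (-2.23 to -1.36). Both ratios overlapped between the deep libraries and both excluded 0 in each.

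In polymerase delta, Pold2, a small accessory subunit (chromosome 11, 5872180 to 5878292, minus strand), had 284, 1 and 126 counts, or 70.0, 21.8 and 33.7 TPM. The catalytic Pold1 had 342, 2 and 142 counts, or 32.9, 17.0 and 14.8 TPM. Pold2 over Pold1 was 1.09 (0.86 to 1.32) and 1.19 (0.83 to 1.54), whereas Pold3 over Pold1 was 0.14 (-0.08 to 0.36) and 0.25 (-0.08 to 0.59) and did not differ beyond counting error. In polymerase epsilon, Pole2 had 109, 5 and 49 counts (30.0, 122 and 14.7 TPM) and the catalytic Pole had 460, 3 and 184 counts (19.3, 11.1 and 8.36 TPM). Pole2 was thus 1.56-fold and 1.75-fold above Pole in the deep libraries per summed exon length. Per longest protein-coding transcript the log2 ratio was -0.01 and 0.16, so the difference between the 2 epsilon subunits depended on which length was used. The catalytic subunits of the leading and lagging strand could be set side by side as well. Pole over Pold1 was -0.77 (-0.98 to -0.57) in replicate 1 and -0.83 (-1.15 to -0.50) in replicate 3, with Pold1 1.71-fold and 1.77-fold above.

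Pcna, the sliding clamp that tethers polymerases to DNA, was the highest gene of the roster in replicate 1. It lies on chromosome 2 (132249162 to 132253314, minus strand) and had 1431, 10 and 562 counts, or 279, 172 and 119 TPM. Its processed pseudogene Pcna-ps2 had 4, 0 and 2 counts and Pcna-ps1 had 0. Lig1, the ligase that seals lagging-strand fragments, had 1156, 11 and 509 counts (127, 106 and 60.5 TPM). Pcna over Lig1 was 1.14 (1.03 to 1.25) and 0.97 (0.80 to 1.15), again with overlapping intervals. Top2a, which untangles replicated chromosomes (chromosome 11, 98992943 to 99024189, minus strand), had the most counts of any member in every library, at 3707, 32 and 1461, or 192, 147 and 82.2 TPM per its long exonic length.

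RFC loads Pcna with a large subunit, Rfc1, and 4 small ones. Rfc5 (chromosome 5, 117378103 to 117389047, minus strand) was highest in every library at 839, 13 and 757 counts, or 83.9, 115 and 82.3 TPM. Rfc4 had 219, 4 and 101 counts (66.7, 108 and 33.4 TPM), Rfc1 845, 4 and 398 counts (65.6, 27.4 and 33.5 TPM) and Rfc2 370, 3 and 186 counts (27.4, 19.7 and 14.97 TPM). Rfc3 (chromosome 5, 151642756 to 151651242, minus strand) was lowest in the deep libraries at 147, 2 and 41 counts, or 19.0, 22.9 and 5.76 TPM. Its rank in replicate 1 rests on its deposited length (3611 bases, against 1317 for its longest protein-coding transcript). Per that transcript length, Rfc3 over Rfc4 was -0.62 in replicate 1 and -1.34 in replicate 3, in place of -1.81 and -2.54. Rfc1 and Rfc4 did not differ in either deep library, at -0.02 (-0.24 to 0.20) and 0.01 (-0.31 to 0.34). Rfc3 over Rfc1 moved beyond counting error, from -1.79 (-2.05 to -1.53) in replicate 1 to -2.54 (-3.04 to -2.08) in replicate 3, and Rfc5 over Rfc4 from 0.33 (0.12 to 0.55) to 1.30 (0.999 to 1.61). Of the 5 subunits, 3 overlap opposite-strand genes at their ends. Wsb2 covers 10.7% of Rfc5 (182, 1 and 132 counts), Eif4a2 12.6% of Rfc4 (1659, 22 and 1077 counts) and Lat2 15.1% of Rfc2 (40, 0 and 62 counts).

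Fen1, the flap endonuclease, showed the largest overlap of the roster. It lies on chromosome 19 (10199132 to 10204169, minus strand), and 84.2% of its exonic length is under exons of plus-strand genes, 78.8% under the noncoding gene Gm10143 alone. Fen1 had 373, 2 and 175 counts, or 71.9, 34.1 and 36.7 TPM. Gm10143 had 8888, 90 and 11254 counts, and per kb of exon stood 17.3-fold, 32.7-fold and 46.7-fold above Fen1 in replicates 1, 2 and 3. From replicate 1 to replicate 3 the log2 ratio of CPM was -0.67 for Fen1 and 0.76 for Gm10143, so the 2 overlapping genes moved apart. Fen1 over Lig1, its partner in fragment maturation, was -0.81 (-0.99 to -0.64) and -0.72 (-0.98 to -0.47) on the log2 scale.

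All annotated noncoding genes lying opposite a member were counted above that member per kb in both deep libraries. Besides Gm10143 and Gm12743, these were Gm15792 opposite Pole (315, 5 and 422 counts; 9.94-fold above Pole in replicate 1 and 33.3-fold in replicate 3) and Gm26847 opposite the start of Timeless (184, 1 and 237 counts; 1.60-fold and 3.90-fold above it). Each of the 4 had a higher CPM in replicate 3 than in replicate 1, with log2 ratios of 0.94 for Gm12743, 0.84 for Gm15792, 0.79 for Gm26847 and 0.76 for Gm10143. The 4 members they lie opposite had log2 ratios of -0.77 for Orc1, -0.90 for Pole, -0.50 for Timeless and -0.67 for Fen1.

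RPA, the single-strand binding complex of 3 subunits, showed Rpa1 highest at 958, 6 and 418 counts (80.2, 44.4 and 38.0 TPM). Rpa2 had 274, 1 and 96 counts (42.8, 13.8 and 16.3 TPM) and Rpa3 106, 0 and 39 counts (43.6 and 17.4 TPM in replicates 1 and 3). Rpa1 over Rpa2 was 0.91 (0.71 to 1.11) and 1.22 (0.90 to 1.56), while Rpa3 over Rpa2 was 0.03 (-0.31 to 0.36) and 0.10 (-0.48 to 0.65) and did not differ beyond counting error.

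In the kinase and checkpoint role, 1 gene stood far above the rest. Tipin (chromosome 9, 64281581 to 64305424, plus strand), which binds Timeless to hold the fork together when it stalls, had 875, 13 and 297 counts, or 219, 287 and 80.6 TPM. Timeless had 334, 4 and 176 counts, or 25.5, 27.0 and 14.6 TPM. Tipin was thus 8.57-fold, 10.6-fold and 5.52-fold above its partner, and the intervals of the log2 ratio of Timeless to Tipin lay apart, at -3.10 (-3.29 to -2.92) in replicate 1 and -2.46 (-2.74 to -2.19) in replicate 3. No opposite-strand exon overlaps Tipin. Clspn, the adaptor that passes the stall signal to Chek1, had 493, 0 and 225 counts (32.04 and 15.9 TPM in replicates 1 and 3), and Clspn over Timeless was 0.33 (0.13 to 0.53) and 0.12 (-0.17 to 0.41). Dbf4, the activator of the S-phase kinase, had 474, 9 and 190 counts (25.4, 42.6 and 11.04 TPM), and Cdc7, the kinase itself, 193, 1 and 54 counts (21.6, 9.87 and 6.55 TPM). Dbf4 over Cdc7 was 0.24 (-0.01 to 0.48) in replicate 1 and 0.75 (0.31 to 1.22) in replicate 3. Per longest protein-coding transcript these ratios were 1.68 and 2.196, because the deposited length of Dbf4 (8728 bases) is far longer than that transcript (2402 bases).

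Across the 33 pairs of partners compared within a library, 32 had the same sign in replicates 1 and 3, and 24 had counting intervals on the same side of 0 in both. The exception in sign, Rfc1 over Rfc4, was within counting error of 0 in each. The intervals of replicates 1 and 3 did not overlap in 12 pairs, and 11 of those 12 contain Mcm7, Gins2 or Rfc5. These 3 genes are in 12 of the 33 pairs, and of the other 21 pairs only Timeless over Tipin lay apart. The share over pairs of other genes was not counted, so these numbers are not particular to replication partners. On library totals, the median log2 ratio of replicate 3 to replicate 1 was 0.22 over all genes with opposite-strand overlap. It was -0.84 over all genes without overlap. With Mcm6, Gins1 and Rfc1 as references in place of Mcm7, Gins2 and Rfc4, a choice made after seeing the values, 4 of the 15 pairs concerned lay apart in place of 11. These 4 were Mcm7 over Mcm6, Gins2 over Gins1, Rfc5 over Rfc1 and Rfc3 over Rfc1. With 3 libraries an exact two-sided sign-flip test cannot go below p = 0.25, so no test over libraries was made of a ratio.

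**Figure D3:**
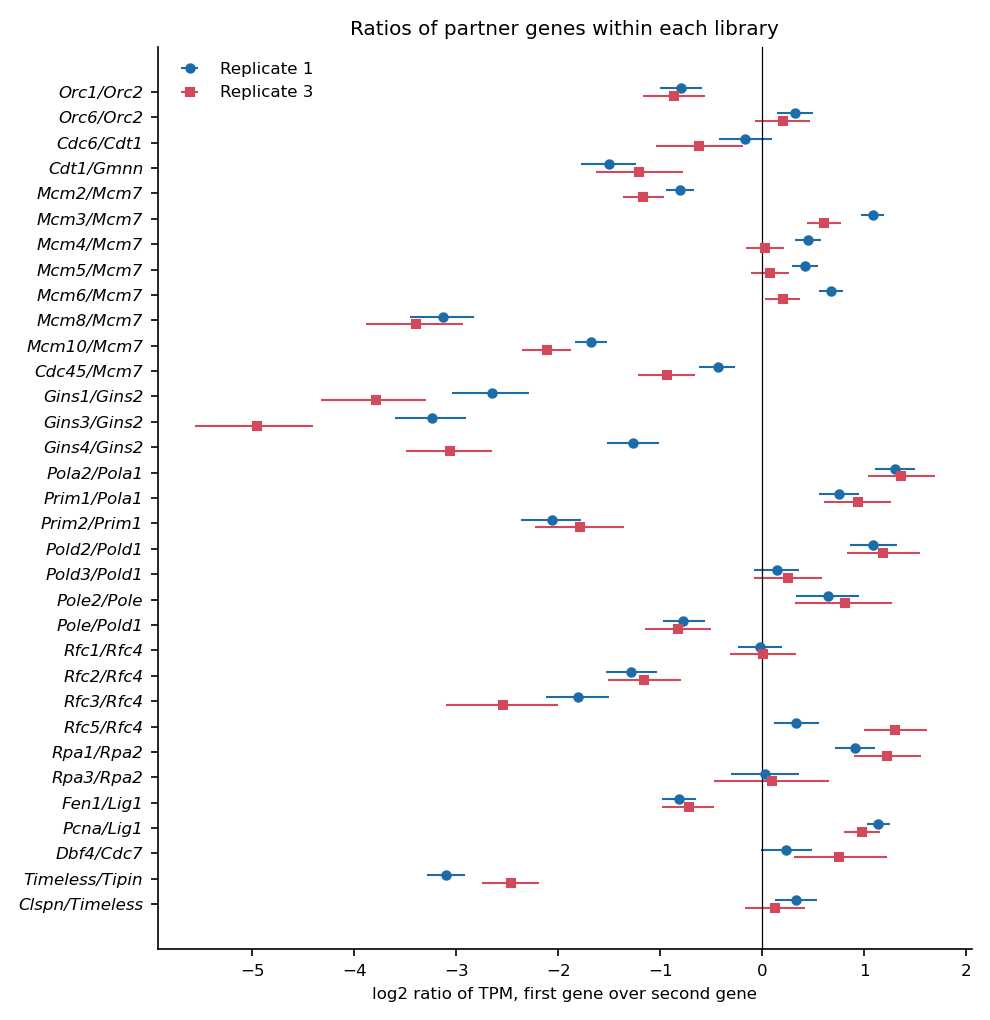
Log2 ratio of TPM of the first over the second gene of 33 pairs, in replicate 1 (circles) and replicate 3 (squares), with exact 95% counting intervals as bars. The vertical line marks equal levels. In 32 pairs both libraries lie on the same side of the line, and bars of the 2 libraries do not overlap in 12 pairs, 11 of which contain Mcm7, Gins2 or Rfc5. The share over pairs of other genes was not counted.

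Between the deep libraries, genes of the roster without opposite-strand exons moved together and by about as much as other such genes. For genes with at least 50 counts over both, the log2 ratio of CPM in replicate 3 to replicate 1 had a median of -0.91 over the 34 members without overlap, with a range from -1.42 (Rfc3 and Cdc7) to -0.34 (Orc3). None was above 0. Over all 5857 genes without overlap the median was -0.84 (quartiles -1.04 and -0.64), and 5.17% were above 0. Members with any overlap had a median of -0.68 (14 genes), and 2 of them, Gins2 (0.66) and Rfc5 (0.27), were above 0. All 4162 genes with any overlap had a median of 0.22, and 53.6% were above 0. For an overlap of 10% or more, the 7 members had a median of -0.67, against 0.66 over 2117 genes. Most overlapping members, Fen1 included, thus had ratios near those of genes without overlap, and Gins2 had one near that of the 211 genes embedded for 90% or more of their length in an opposite-strand gene (median 0.78).

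These ratios are on library totals, and another scaling shifts all of them by one amount. TMM scaling raises every log2 ratio by 0.45 and scaling to the totals of genes without opposite-strand exons by 0.77. The median of the 34 members without overlap was then -0.46 and -0.14. The median of the 14 members with overlap was -0.23 under TMM and turned to 0.085 under the totals of genes without overlap.

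**Figure D4:**
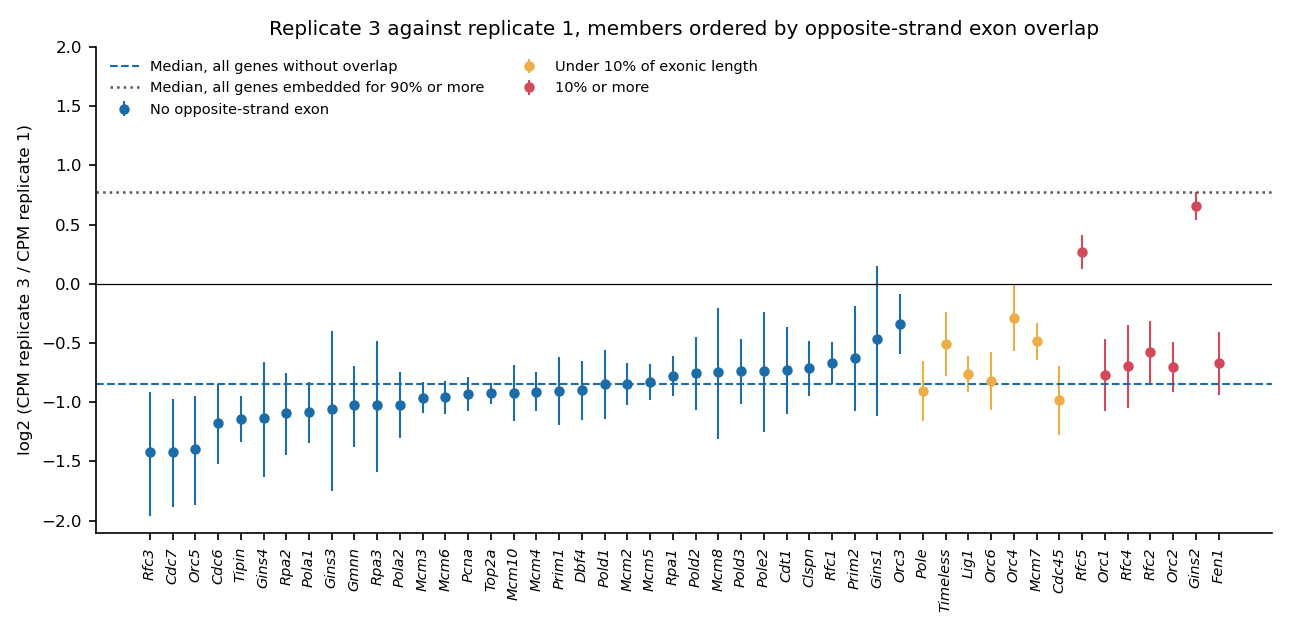
Log2 ratio of CPM in replicate 3 to replicate 1 for each of the 48 genes, with exact 95% counting intervals, ordered and coloured by the share of exonic length under opposite-strand exons. The dashed line is the median of all genes without overlap (-0.84), the dotted line the median of all genes embedded for 90% or more (0.78), and the solid line marks no difference. Gins2 and Rfc5 are above 0, and the other 46 genes are below it.

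The spread over the 3 libraries was larger than counting error for 28 of the 44 members that passed the filter on low counts, by a chi-square test on totals scaled with TMM (adjusted by Benjamini-Hochberg over 7406 genes, threshold 0.05). Over all genes tested the share was 63.2%, close to the members' share in this setting. Of the 28, 26 were lower in replicate 3 than in replicate 1 (36.3% of all genes tested were called in that direction) and 2 were higher (26.9%). The 2 higher were Gins2 (adjusted chi-square p = 7.23e-80) and Rfc5 (adjusted chi-square p = 3.18e-22). The 26 lower genes included the whole MCM2-7 ring except Mcm7, with Mcm3 at an adjusted chi-square p of 6.90e-14, together with Mcm10 and Cdc45. They also included Top2a, Pcna, Lig1, Rpa1, Rpa2, Rfc1 and Rfc3 of the clamp and maturation role, and Pola1, Pola2, Prim1, Pold1, Pole and Pole2 of the polymerases. Orc6, Cdc6 and Gmnn of the licensing role and Tipin, Dbf4 and Cdc7 of the kinase and checkpoint role complete them. Pole2 (adjusted chi-square p = 0.0033) had its highest level in replicate 2 (5 counts, 122 TPM). The direction of a call was read from the scaled counts of replicates 1 and 3 and was not itself tested. With replicate 2 left out, Pole2, Rfc1, Lig1, Rpa1 and Pold1 were among the members not called (adjusted chi-square p from 0.40 to 0.90). Because the labels do not name separate animals or cultures, these p-values describe these 3 libraries only, and the spread between them may be technical. Each p-value measures departure from counting error and not the size of the spread, since it also falls as counts rise.

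The number called depended on the scaling, the filter and the libraries. With every gene that had a count tested, 30 of 48 members were called, against 30.6% of 18775 genes, many of them with few counts. On library totals with no further scaling 42 of 44 were called, against 88.4%. On totals of genes without opposite-strand exons 10 of 44 members were called, against 41.2% of all genes, with 6 higher in replicate 3 than in replicate 1 (32.3% of all genes) and 4 lower (8.83%). The 10 were Mcm3, Orc4, Orc3, Cdc7, Rfc5, Mcm7, Gins2, Tipin, Top2a and Pole2. When genes without opposite-strand exons were tested alone, 3 of 30 members were called (Orc3, Tipin and Pole2), against 13.3%. Without replicate 2, 18 of 48 were called, against 37.9%, with 5 higher (27.3%) and 13 lower (10.5%) in replicate 3. Without replicate 1, 2 of 44 were called (Gins2 and Pole2), against 9.47%, and without replicate 3 1 of 44 (Pole2), against 3.65%. With the common dispersion over all genes from edgeR added to counting error (biological coefficient of variation 0.34), 0 of 44 members were called, against 0.891% of all genes, and 1 member, Pole2, had an unadjusted p under 0.05. With DESeq2 size factors and counting error alone 24 of 44 were called, against 54.3%.

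Other genes that serve replication, listed by role, were counted in the same libraries. Their calls are to be read against the same shares of all genes tested on TMM-scaled totals, 63.2% called, 26.9% called higher in replicate 3 and 36.3% called lower. Of 18 accessory initiation and fork factors, 17 reached 1 TPM in every library and 12 of 17 tested were called, 5 higher and 7 lower in replicate 3 than in replicate 1. The ribonuclease H2 genes Rnaseh2a (451 ± 189 TPM; SD, n = 3) and Rnaseh2c (265 ± 135 TPM) led, the latter with 29.1% of its length under opposite-strand exons, followed by Donson, a helicase assembly factor (184 ± 28.2 TPM). The initiation factor Ticrr (7.61 ± 3.58 TPM) and Rnaseh2b (10.2 ± 5.52 TPM) were lowest, so the 3 subunits of ribonuclease H2 ranged from the top to the bottom of that list.

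Of 9 ubiquitin ligase and S-phase cyclin and kinase genes, 7 reached 1 TPM in every library and 6 of 7 tested were called, 2 higher and 4 lower in replicate 3. Ccna2 (252 ± 36.1 TPM, 12.5% overlapped) and Ccne2 (114 ± 34.4 TPM, 17.4% overlapped), cyclins of S phase and of its onset, were the 2 higher, and the ligase adaptor Ddb1 stood at 153 ± 65.0 TPM. Skp2 (3.09 ± 3.49 TPM) and Dtl (5.46 ± 3.11 TPM), substrate receptors that target licensing factors among others, were lowest. Of 5 genes of alternative clamp loaders, 4 reached 1 TPM in every library and 2 of 4 tested were called, both lower, Chtf8 (68.7 ± 33.0 TPM) and Rad17 (35.5 ± 21.7 TPM).

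The replication checkpoint list was the sparsest. Of its 7 genes 4 reached 1 TPM in every library, and 2 of 4 tested were called, Rad9a higher and Chek1 lower in replicate 3. Rad9a, of the checkpoint clamp, had 916 ± 305 TPM with 10.9% of its length overlapped, whereas its clamp partner Rad1 had 109, 0 and 43 counts (3.28 ± 3.45 TPM). Atrip, the partner of the kinase Atr, had 4, 0 and 6 counts, and Chek1, the effector kinase, stood at 13.9 ± 6.94 TPM.

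Of 9 chromatin replication genes, 8 reached 1 TPM in every library and 6 of 8 tested were called, all lower in replicate 3. The histone chaperone subunit Ssrp1 led at 338 ± 135 TPM, followed by its partner Supt16 (156 ± 59.4 TPM, 23.4% overlapped) and the maintenance methyltransferase Dnmt1 (116 ± 40.5 TPM). Of the 7 nucleotide supply genes all reached 1 TPM in every library and 5 of 7 were called, all lower, with Dctpp1 at 178, 428 and 69.8 TPM (7 counts in replicate 2), Rrm2 at 198, 209 and 81.3 TPM, Dut at 185, 85.7 and 63.4 TPM and the thymidylate synthase gene Tyms lowest at 19.8 ± 8.40 TPM. Of 14 mitosis genes, 11 of 14 tested were called and all 11 were lower in replicate 3, the lowest level being that of the kinetochore gene Cenpf (10.4 ± 3.03 TPM). Over these 7 lists, all 8 genes called higher in replicate 3 overlap an opposite-strand gene, as do 6 of the 36 called lower. In the 8 the overlap ran from 2.54% (Lrwd1) to 29.1% (Rnaseh2c) of their length. On library totals, 53.6% of all 4162 genes with any overlap had a higher CPM in replicate 3. Of the 5857 genes without overlap 5.17% did, so the split is not particular to these lists.

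Several members face another gene at their start. In 14 of the 48 (29.2%) an opposite-strand protein-coding gene starts within 1000 bases, against 10.6% of 21764 protein-coding genes and 18.9% of the 9636 that reached 1 TPM in replicates 1 and 3. Orc3 and Rars2 start 13 bases apart (343, 6 and 203 counts against 216, 2 and 67), and Mcm8 and Trmt6 86 bases apart (92, 3 and 41 against 376, 6 and 129). Orc1 faces Prpf38a, Mcm4 faces Prkdc and the start of Mcm7 overlaps that of Ap4m1. The neighbour was the lower of the 2 by count in both deep libraries in 9 of the 14 pairs. Those counts are not divided by length, and the share over other genes was not counted. The neighbour's log2 ratio of replicate 3 to replicate 1 was below 0 in 13 of 14, all but Ap4m1. On library totals such a ratio was common, with 25.3% of all 10019 genes above 0 and 5.17% of those without overlap.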

How the data were processed

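RNA-seq of 3 libraries of mouse Th1 cells was analysed from the deposited tables. Per the file headers, the authors counted read pairs over exons with featureCounts 1.4.6-p4, both ends mapped, strand setting 1, on the GENCODE M13 annotation, and deposited raw counts per gene. Per the labels mm10 was the assembly. The deposited files also give another value, the summed exon length per gene. No source used here gives the library kit, trimming or the aligner version. The assay is total RNA-seq in the labels, whose linked protocol is named for poly(A)+ RNA.

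CPM and TPM were computed here from counts and length. Symbols were matched for 50376 of 50600 identifiers. Biotypes and transcript lengths came from GENCODE M21 on the same assembly, exon overlap from bedtools 2.31.1, and start-region sequences from RefSeq (GRCm38.p6). The last letters of 41 of 48 member start regions were found in a transcript of the gene. With 1 group no edgeR quasi-likelihood contrast could be made. Each gene kept by filterByExpr (edgeR 4.0.16) had its 3 counts compared with those expected from TMM-scaled totals by a chi-square test (2 degrees of freedom), adjusted by Benjamini-Hochberg over 7406 genes with a threshold of 0.05. The test was checked on counts simulated for these genes with counting error alone, so the check does not cover further variation between libraries. Ratios of 2 genes have exact 95% conditional binomial intervals and shares exact Clopper-Pearson intervals, both for counting error only. No 2 libraries were duplicates within sampling noise (chi-square per degree of freedom 1.69 to 36.1).

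Members and lists were chosen with earlier results of these data known. All members could be named; per-library values were given for the highest and lowest of each complex, members overlapped for 10% or more, members called, and Pcna, Cdc6, Cdt1, Gmnn, Cdc45 and Top2a, and of each further list up to 3 highest and 2 lowest genes or those called. Alternatives changed scaling (DESeq2 1.42.0 included), filter, dispersion, floor, unit, length and libraries. R 4.3.3 and Python 3.11.15 were used. Results for some genes of the marker lists are left out of the text.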

Additional observations from a re-analysis of the deposited data

How the results depend on the processing

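The number of members varying beyond counting error, 28 of 44, was 10 on totals of genes without opposite-strand exons, 3 of 30 when those genes were tested alone, and 0 with a common dispersion. It was 42 of 44 on library totals and 30 of 48 with every gene with a count tested. It ranged from 1 to 18 when a replicate was left out (18 without replicate 2). Leaving out replicate 1 or 3 leaves the shallow library in every comparison and fewer counts, and the cause of the other differences was not tested. The median log2 ratio of replicate 3 to replicate 1 over members without overlap moved from -0.91 to -0.46 under TMM and -0.14 on totals of genes without overlap, and that of members with overlap from -0.68 to -0.23 and, reversed, 0.085, by the construction of each scaling. Of the 33 pairs, 12 lay apart between replicates 1 and 3, and 5 with Mcm6, Gins1 and Rfc1 as references, since Mcm7 and Gins2 then enter fewer pairs. Without division by length, which leaves no level per gene, Pola2 over Pola1 turned to -0.051, Prim1 over Pola1 to -0.42, Pold2 over Pold1 to -0.48, Pole2 over Pole to -1.08, Pole over Pold1 to 0.46 and Rfc2 over Rfc4 to 0.41. These 6 had intervals on 1 side of 0 in both deep libraries. Another 4 without such intervals also turned, Orc6 over Orc2 to -0.34, Cdc6 over Cdt1 to 0.23, Rfc1 over Rfc4 to 1.31 and Rpa3 over Rpa2 to -1.34, as did Mcm4 over Mcm7 (-0.15) per longest transcript. These 11 were the only pair values summarised over libraries with the other sign under any alternative run. In single libraries per longest transcript, Mcm5 over Mcm7 (-0.26) and Mcm6 over Mcm7 (-0.28) also turned in replicate 3. In replicate 1, Pole2 over Pole (-0.01) and Rfc1 over Rfc4 (0.05) turned. No paired analysis was possible because there is 1 group. The depth of replicate 2 (50627 counts) limits every value drawn from it.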
